A study of Mus musculus with 28 samples.

Results

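The 41 genes described here encode the contractile filaments, calcium handling proteins, fuel enzymes and myogenic transcription factors of skeletal muscle. They were chosen by name, and all 41 were found among the 55573 genes counted in the whole-body experiment and the 57126 genes counted in the keratinocyte experiment. Whole skin was taken from 12-week-old female mice whose hair was removed 5 days earlier, and total RNA depleted of ribosomal RNA was sequenced. The study asked what loss of Vsir, the gene of the immune checkpoint receptor VISTA, does in skin exposed to ultraviolet B light (UVB, 500 mJ/cm2). Titles place the harvest 3 h after UVB whereas the treatment protocol states 1 day, so the time after exposure is uncertain.

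The whole-body experiment held 4 groups of 3 libraries: Vsir-/- mice after UVB (KO_UV), Vsir-/- mice without it (KO_NoUV), wild-type mice after UVB (WT_UV) and wild-type mice without it (WT_NoUV). The keratinocyte experiment held 4 groups of 4 libraries: K14creVsirfl/fl mice after UVB (cKO_UV) and without it (cKO_NoUV), and mice with the floxed Vsir allele and no Cre in their label after UVB (FL_UV) and without it (FL_NoUV). Cre in the cKO mice is driven by the K14 promoter, which is active in basal keratinocytes. The labels name each library as a separate sample and do not state litter or cage, so p-values measure the spread between these samples. Vsir averaged 6.14 ± 0.951 CPM (counts scaled to a common library total) in KO_NoUV against 38.4 ± 6.65 CPM in WT_NoUV (SD, n = 3 each), and its edgeR adjusted p for cKO_NoUV against FL_NoUV was 0.923 in whole skin. Libraries of the whole-body experiment held 30470828 to 43837915 counts, and those of the keratinocyte experiment 7117198 to 31138604, with FL_NoUV 1 and cKO_UV 3 the shallowest at 7117198 and 7509742. KO_NoUV 2 and KO_UV 3 had under 5% of their counts in Gm42418, a predicted gene that held more of the counts in every other whole-body library. Summed markers of growing hair follicles (9 genes) ran from 13.3 to 6740.1 CPM in the keratinocyte experiment, with cKO_NoUV 1, FL_UV 1, FL_UV 4 and FL_NoUV 4 the highest libraries.

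Mouse skin carries a thin sheet of striated muscle, the panniculus carnosus, beneath the fat layer. Its fibres contract when myosin thick filaments pull on actin thin filaments inside sarcomeres, and calcium released from the sarcoplasmic reticulum switches the pull on through troponin and tropomyosin. Each fibre expresses mainly 1 adult myosin heavy chain: Myh7 in slow fibres, Myh2 in fast IIA, Myh1 in fast IIX and Myh4 in fast IIB fibres, in order of rising speed. Slow and fast fibres also use different troponins, light chains and calcium pumps, and the skin muscle of mice is known as a largely fast muscle. In bulk RNA, fewer muscle cells in a piece of skin and less RNA per muscle cell cannot be told apart.

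The adult fast myosin heavy chain genes lie side by side on the plus strand of chromosome 11 (GRCm38), with Myh2 from 67171027 to 67197517, Myh1 from 67200052 to 67224575 and Myh4 from 67238029 to 67260446. Myh3, the embryonic chain, lies before them and Myh8, the perinatal chain, after them. Their RefSeq start windows are shown because the neighbours Myh1 and Myh4 moved in opposite directions in the results, and that of Tnnt1 because this slow troponin T gene moved beside Myh4. The part of these windows in the results was not tested. The RefSeq table for GRCm38.p6 gave a window for 34 of the 41 members, from 250 bases before to 50 bases after the start. Each is written 5′ to 3′ on the strand of its gene: Myh4 at chr11:67237562-67237861 (plus), Myh1 at chr11:67199852-67200151 (plus), Myh2 at chr11:67170777-67171076 (plus) and Tnnt1 at chr7:4515926-4516225 (minus). Capitals mark matches, on either strand, to the E-box CANNTG read by MyoD-type factors, to the MEF2 motif and to TATAAA.
Myh4: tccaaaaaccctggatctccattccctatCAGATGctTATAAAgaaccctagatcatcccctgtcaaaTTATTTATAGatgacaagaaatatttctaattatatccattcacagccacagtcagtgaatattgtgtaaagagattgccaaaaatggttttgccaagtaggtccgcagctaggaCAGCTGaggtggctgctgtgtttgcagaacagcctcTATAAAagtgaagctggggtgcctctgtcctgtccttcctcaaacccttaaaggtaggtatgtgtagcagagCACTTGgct
Myh1: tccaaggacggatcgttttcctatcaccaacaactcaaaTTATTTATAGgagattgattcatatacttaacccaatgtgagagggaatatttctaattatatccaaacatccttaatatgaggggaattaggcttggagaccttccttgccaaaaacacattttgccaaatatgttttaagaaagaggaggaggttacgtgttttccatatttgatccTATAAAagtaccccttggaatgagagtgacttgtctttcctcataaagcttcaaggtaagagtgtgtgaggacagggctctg
Myh2: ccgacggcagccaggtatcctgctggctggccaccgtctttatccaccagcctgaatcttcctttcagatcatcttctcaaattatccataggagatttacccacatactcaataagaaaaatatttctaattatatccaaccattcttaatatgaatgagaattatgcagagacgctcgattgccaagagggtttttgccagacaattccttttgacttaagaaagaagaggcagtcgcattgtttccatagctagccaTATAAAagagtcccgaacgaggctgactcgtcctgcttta
Tnnt1: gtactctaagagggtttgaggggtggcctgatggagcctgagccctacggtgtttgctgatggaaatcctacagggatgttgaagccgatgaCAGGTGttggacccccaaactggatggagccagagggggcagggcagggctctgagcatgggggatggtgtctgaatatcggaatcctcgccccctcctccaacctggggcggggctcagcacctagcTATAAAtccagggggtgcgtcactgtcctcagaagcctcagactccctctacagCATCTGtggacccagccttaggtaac

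RefSeq places the start of Myh4 before the start in the deposited table. The Myh4 window held 3 E-boxes and 1 MEF2 match, and the Myh1 window held no E-box and 1 MEF2 match with the same letters. In both windows a TATAAA match lay inside the MEF2 match and is marked with it. Counting the start base as 0, TATAAA outside that match began at -213 and -31 in Myh4, at -32 in Myh1 and at -30 in Tnnt1, and at 10, after the start, in Myh2. Of all 32851 promoter windows in the table, 72.3% held an E-box, 3.19% a MEF2 match and 13.6% TATAAA. Of the 41 windows of members, since some members have several, 37 held an E-box, 5 a MEF2 match and 9 TATAAA. These matches describe letters in the windows and show no binding.

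The members' summed share of all counts was 4.06% ± 0.873 in KO_UV, 4.01% ± 0.645 in KO_NoUV, 3.39% ± 0.624 in WT_UV and 2.28% ± 0.483 in WT_NoUV (SD, n = 3 each). In the keratinocyte experiment it was 6.56% ± 2.58 in cKO_UV, 3.84% ± 1.54 in cKO_NoUV, 3.64% ± 1.20 in FL_UV and 2.25% ± 0.424 in FL_NoUV (SD, n = 4 each). WT_NoUV libraries all lay below WT_UV libraries, and the KO groups overlapped. Single libraries ran from 1.69 to 9.09% in the keratinocyte experiment, with cKO_NoUV 1 the lowest and cKO_UV 4 the highest. Summed markers of keratinocytes (7 genes) ran from 9786 to 15755 CPM in KO_UV, 12539.8 to 15724 in KO_NoUV, 18476 to 29342 in WT_UV and 21861 to 33695 in WT_NoUV, and their part in the members' levels was not tested.

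Counted per kilobase of transcript, Acta1, the skeletal actin of thin filaments, stood first among the members with 1435 ± 519.9 CPM per kilobase in WT_NoUV (SD, n = 3). Tnnt3, Atp2a1, Tnnc2 and Mylpf followed in the whole-body experiment, all of them fast fibre genes. Of genes typical of 1 fibre type, 6 slow ones (Myh7, Myl2, Myl3, Tnnt1, Tnni1 and Tnnc1) were set against 10 fast ones (Mylpf, Myl1, Tnnt3, Tnni2, Tnnc2, Mybpc2, Actn3, Atp2a1, Pvalb and Casq1). Each of these 6 lay below each of the 10 per kilobase in every library. Mybpc1, counted as a slow gene here but not among the 6, lay above some of the 10. Summed per kilobase, the 6 slow genes reached 0.138, 0.267 and 0.258 per 1000 units of the fast genes in KO_UV, against 1.58, 0.780 and 1.45 in KO_NoUV. They reached 0.151, 0.239 and 0.360 in WT_UV, against 0.548, 0.681 and 0.704 in WT_NoUV. In the keratinocyte experiment the same ratio was 2.01, 0.712, 0.597 and 0.349 in cKO_UV, against 1.64, 0.0552, 0.197 and 0.170 in cKO_NoUV. It was 0.824, 0.758, 0.483 and 0.813 in FL_UV, against 0.553, 0.301, 0.345 and 1.15 in FL_NoUV. The UV libraries lay below all NoUV libraries of their genotype in the whole-body experiment, and the groups overlapped in the keratinocyte experiment. Heart markers (7 genes) summed to at most 17.8 CPM in any library, with Myh6, a myosin heavy chain of the heart, at no more than 0.248 CPM.

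**Figure D1:**
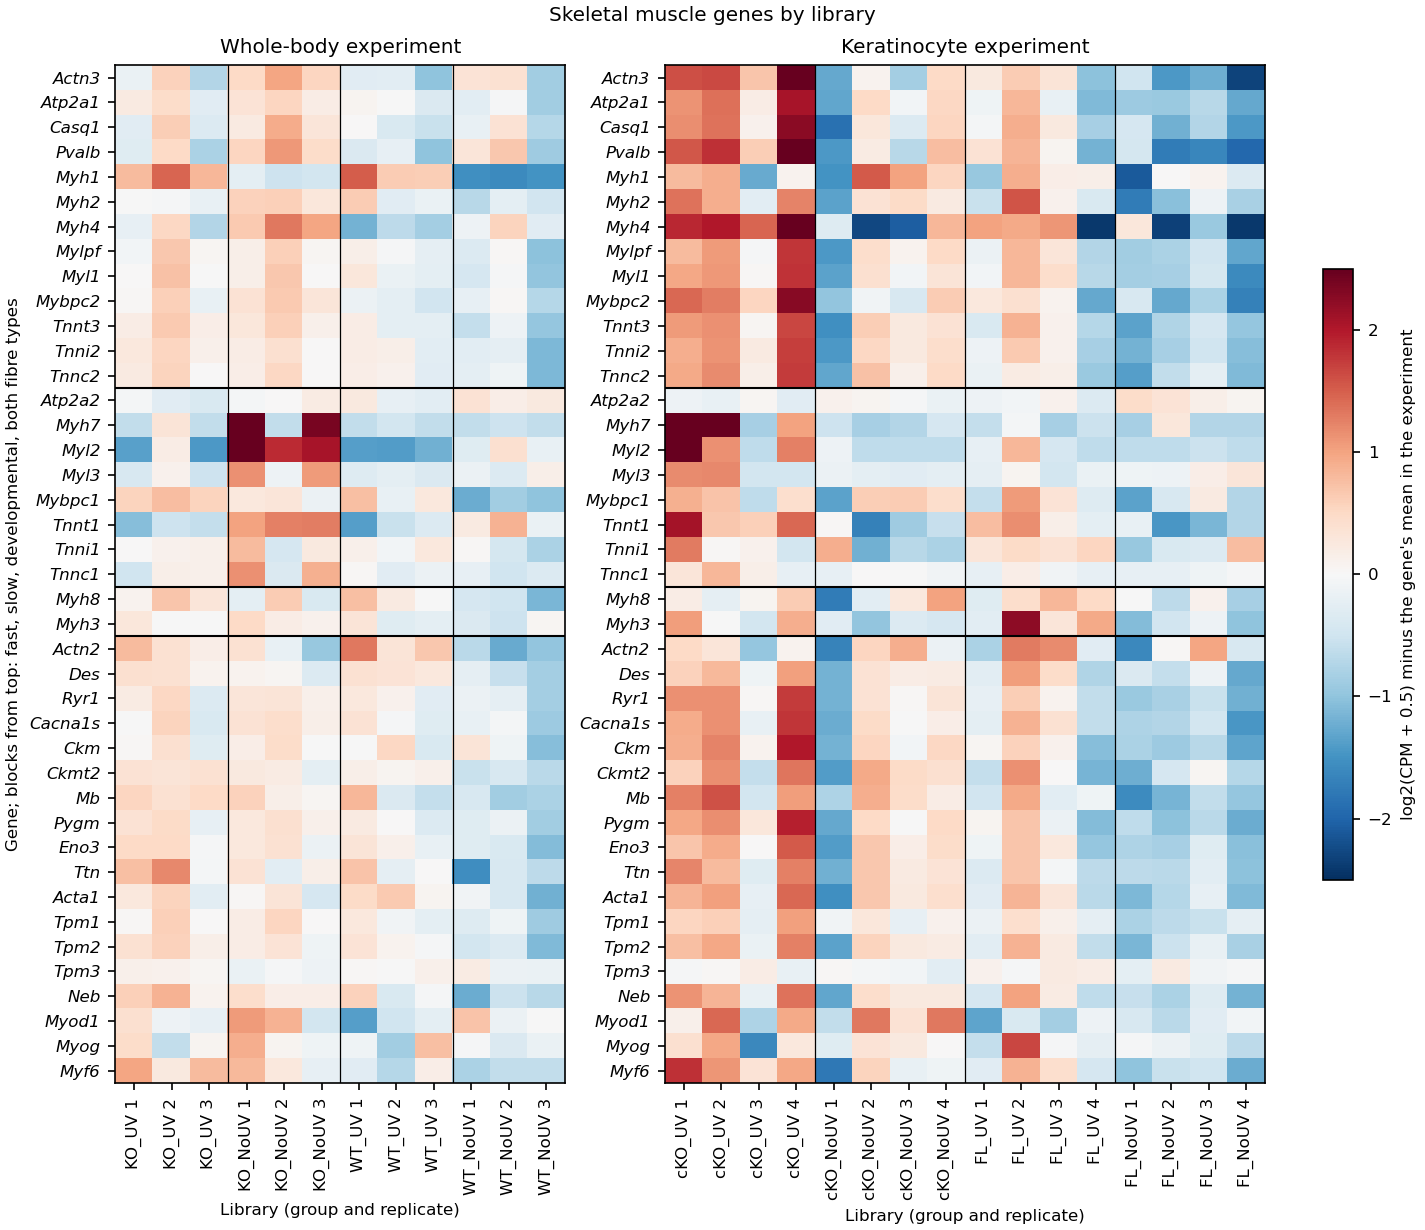
Level of each skeletal muscle gene (rows, log2(CPM + 0.5) minus the gene's mean over the libraries of the experiment, colours clipped at the ends of the scale) in each library (columns), with UV groups left of NoUV groups and fast, slow, developmental and shared genes in blocks from the top. Most fast and shared genes move together from library to library, whereas Myh4 and Myh1 part in the whole-body UV groups.

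Of the 41 members, 6 changed with UV in KO mice: 1 was higher and 5 were lower in KO_UV than in KO_NoUV (edgeR quasi-likelihood test, Benjamini-Hochberg adjusted p under 0.05 over all genes), where 22.4% of all 20365 genes were called, 11.3% higher and 11.1% lower. In WT mice 12 members changed, 9 higher and 3 lower in WT_UV than in WT_NoUV, where 18.7% of all genes were called, 8.91% higher and 9.84% lower. In cKO mice 6 of the 39 members tested changed, all 6 higher in cKO_UV than in cKO_NoUV, where 9.72% of all 19718 genes were called, 4.57% higher. In FL mice none of 39 members was called, where 7.62% of all genes were called. Yet 20 members had an unadjusted p under 0.05, a share not counted over all genes. DESeq2 called 4 members and 2304 of all genes in FL. The median log2 fold change (log2FC) over members was -0.04 in KO, 0.43 in WT, 0.97 in cKO and 0.90 in FL, beside 0.02 in KO, -0.01 in WT, 0.01 in cKO and 0.01 in FL over all genes. A larger share of members than of all genes was called in WT and cKO and a smaller one in KO and FL, and none of these shares was tested. Myl3 and Tnnc1 did not pass the filter on low counts in the keratinocyte experiment.

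By role, the calls in KO were 1 higher and 4 lower of 13 thick filament genes and 1 lower of 11 thin filament genes. In WT they took in 3 higher and 2 lower of 13 thick filament genes, 3 higher and 1 lower of 11 thin filament genes, 2 higher of 3 Z-disc genes and 1 higher of 5 energy genes. In neither did a call fall on the 6 calcium handling genes or the 3 transcription factors. By fibre type, 1 fast gene rose and 1 fell of 13 in each of KO and WT, whereas 4 of 8 slow genes fell in KO and 1 rose and 2 fell in WT. The slow gene that rose in WT was Mybpc1, which had 10511 to 38099 counts per whole-body library, far above the slow genes that fell. In cKO 3 of 13 fast genes and 3 of 6 slow genes tested rose.

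With the mean level of 45 other skeletal muscle genes as a covariate, 6 members were called in KO, 1 in WT (Myh1), 4 in cKO and 1 in FL. Over all genes the same fit called 4452 of 20365 in KO and 679 in WT. It called 2332 of 19718 in cKO and 1967 in FL. Without the covariate 3817 of all genes were called in WT, so calls in WT fell over all genes too. Under the muscle covariate the members that lost their WT call had log2FC from near 0 to about as large as without it. Between these ends were Actn2, Mybpc1, Neb, Des and Ckmt2. Over the 7 alternative settings their lowest log2FC in WT was 0.68, 0.85, 0.38, 0.34 and 0.32. The log2FC of Acta1 came to 0.04, of Tpm2 to 0.07 and of Myh8 to 0.19. Those of Myh4 (-1.27), Myl2 (-4.02) and Tnnt1 (-1.11) were about as large as without it or larger. In KO, leaving out KO_UV 1, KO_UV 3 or KO_NoUV 3 gave 3 calls. In the fit of WT_UV and WT_NoUV alone 6 members were called, beside 1288 of all genes. Leaving out WT_UV 1 also gave 6 calls, and leaving out WT_NoUV 2 or WT_NoUV 3 gave 7. In cKO, leaving out cKO_NoUV 3, cKO_UV 1 or cKO_UV 4 gave 1, 2 and 3 calls. Calls over all genes in the fits that left out 1 library are not given here.

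Markers of other cells of the skin also differed between UV and NoUV libraries. Adipocyte markers (7 genes) summed to 414 to 1358 CPM in cKO_UV, against 289 to 657 in cKO_NoUV, and to 473 to 823 in FL_UV, against 281 to 459 in FL_NoUV. Their median log2FC was 0.13 in KO, 0.18 in WT, 0.95 in cKO and 0.81 in FL, beside 0.97 in cKO and 0.90 in FL over the members. In cKO 5 of the 7 had an unadjusted p under 0.05, and edgeR called 1 in KO and none in WT, cKO or FL. Of 7 fibroblast markers 4 rose in KO and 1 in FL, with medians of 0.58 in KO, -0.01 in WT, 0.22 in cKO and 0.71 in FL. Of 5 endothelial markers 2 fell in KO and 2 in WT, and of 5 macrophage and 5 Schwann cell markers 1 of each list rose in KO. Of 9 growing hair follicle genes 1 of 6 tested fell in KO and none of 8 tested was called in cKO or FL, at medians of -4.48 in cKO and -0.28 in FL. Beside these counts, 22.4% of all genes were called in KO, 18.7% in WT, 9.72% in cKO and 7.62% in FL. The part of these cells in the members' results was not tested.

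**Figure D2:**
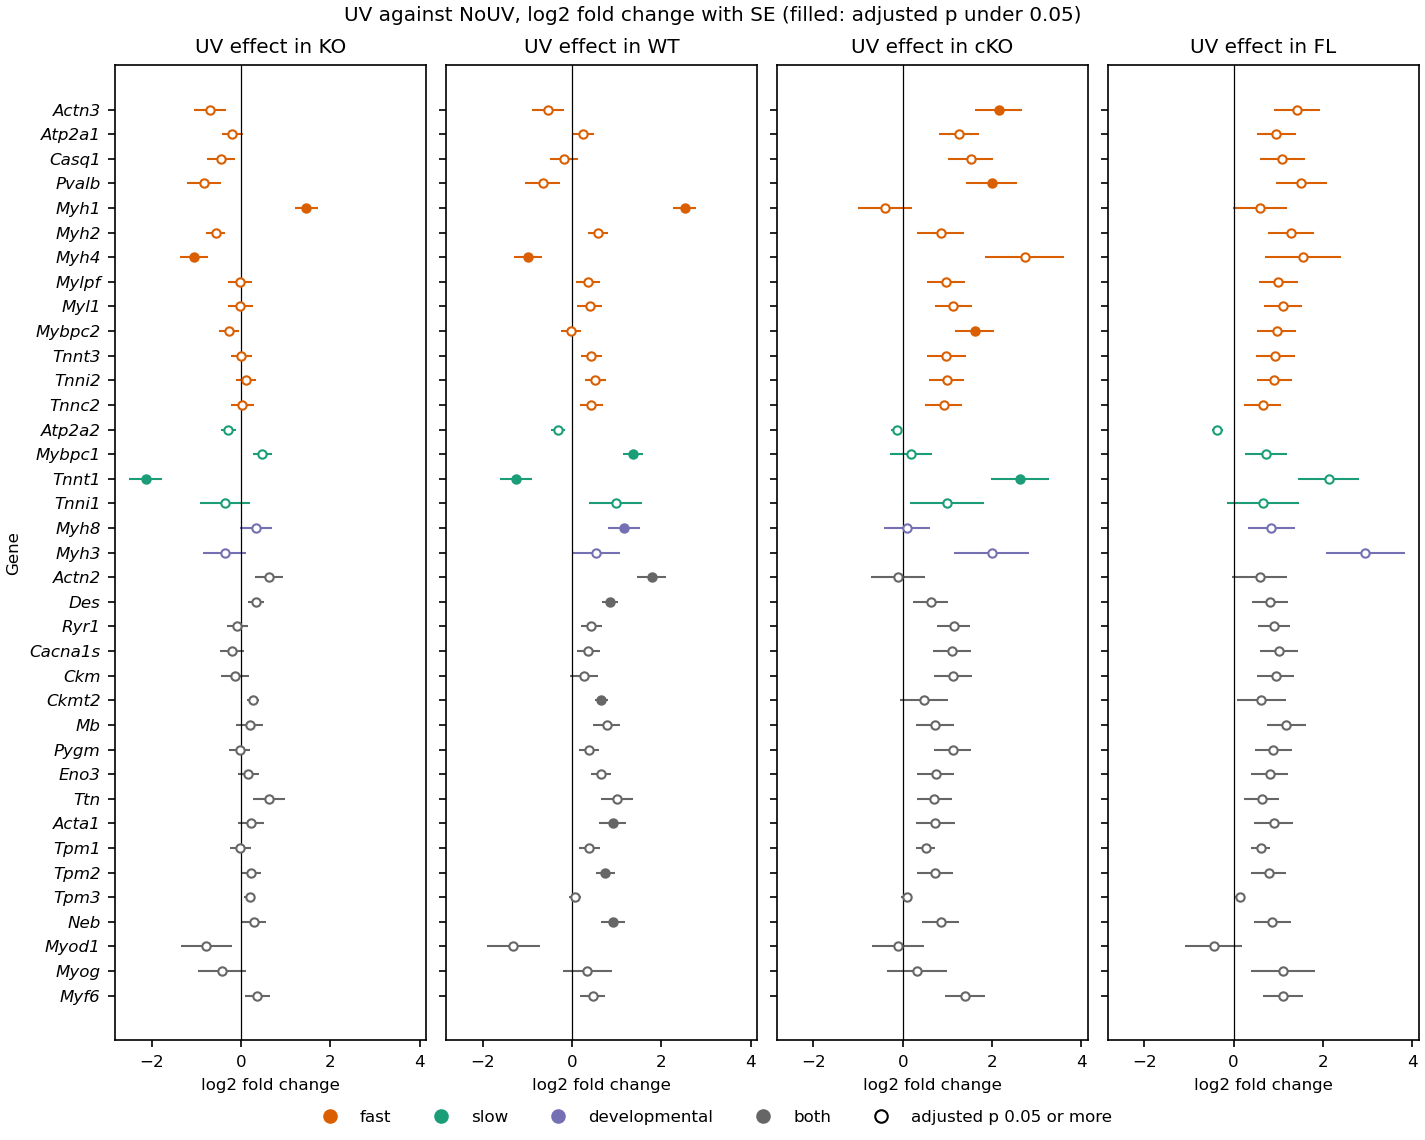
Log2 fold change of UV against NoUV (x axis) with its standard error, from edgeR, for 37 members (rows) in KO, WT, cKO and FL mice (panels from left to right). Filled points passed an adjusted p of 0.05, and the 4 slow genes with the lowest counts (Myh7, Myl2, Myl3, Tnnc1) are left out; Myh1 lies right of 0 and Myh4 left of 0 in KO and WT, and Myh4 lies right of 0 in cKO and FL.

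The myosin heavy chains included members that moved in opposite directions. In the whole-body experiment Myh1 was higher and Myh4 lower after UV in both genotypes, so that Myh1 exceeded Myh4 per kilobase in every whole-body UV library and in no NoUV one. In the keratinocyte experiment Myh4 had positive log2FC values that did not pass the test, with wide spread between libraries. Multi-mapping settings of the counting are not stated, and these genes share long near-identical stretches, so part of the reads may have been split between them or lost.

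Myh4, the fastest heavy chain, had 2099.9, 3477 and 1450.5 CPM in KO_UV libraries, against 3821, 6007 and 4791 CPM in KO_NoUV libraries. It had 1065, 1531 and 1338 CPM in WT_UV libraries, against 2206, 3557 and 1989.7 CPM in WT_NoUV libraries. UV and NoUV groups did not overlap in either genotype. Myh4 fell in both genotypes (edgeR, KO: log2FC -1.06 ± 0.31, adjusted p = 0.0277; WT: log2FC -0.98 ± 0.31, adjusted p = 0.0444; ± SE throughout). The KO call was lost without KO_UV 1, KO_UV 3, KO_NoUV 2 or KO_NoUV 3, and without both libraries low in Gm42418. The WT call was lost in 9 of 12 fits that each left out 1 library, all but those without WT_NoUV 1, KO_UV 2 or KO_UV 3, with adjusted p up to 0.194. In cKO_UV libraries Myh4 had 2627, 2848, 1942 and 6785 CPM, against 568, 146, 169.6 and 1263 CPM in cKO_NoUV libraries. In FL_UV libraries it had 1426, 1379.9, 1538 and 134 CPM, against 868, 141, 375 and 134 CPM in FL_NoUV libraries. The cKO groups did not overlap and the FL groups did, with FL_UV 4 as low as the lowest FL_NoUV library. Neither difference passed the test (cKO: log2FC 2.73 ± 0.89, adjusted p = 0.0683; FL: log2FC 1.56 ± 0.85, adjusted p = 0.299), and DESeq2 called the first.

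Myh1, the IIX heavy chain, had 2695, 4275 and 2749 CPM in KO_UV libraries, against 1315, 1085 and 1133 CPM in KO_NoUV libraries. It had 4408, 2416 and 2384 CPM in WT_UV libraries, against 534, 513 and 555 CPM in WT_NoUV libraries. Every UV library lay above every NoUV library of its genotype. Myh1 rose in both genotypes (edgeR, KO: log2FC 1.46 ± 0.25, adjusted p = 0.00154; WT: log2FC 2.52 ± 0.26, adjusted p = 0.000194) and kept the call in all 12 fits that left out 1 library. In cKO_UV libraries it had 2333, 2516, 558 and 1422 CPM, against 475, 3904, 2694 and 1962 CPM in cKO_NoUV libraries. In FL_UV libraries it had 701, 2518, 1511 and 1483 CPM, against 315, 1346, 1422 and 1055 CPM in FL_NoUV libraries. Groups overlapped in both keratinocyte genotypes, and neither difference passed the test (cKO: log2FC -0.40 ± 0.61, adjusted p = 0.730; FL: log2FC 0.59 ± 0.61, adjusted p = 0.618).

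Myh2, the IIA heavy chain, had 324, 320.4 and 290.5 CPM in KO_UV libraries, against 489, 499 and 399 CPM in KO_NoUV libraries. It had 511, 269 and 293 CPM in WT_UV libraries, against 204, 277 and 234 CPM in WT_NoUV libraries. The KO groups did not overlap, with UV lower, and the WT groups did. Neither difference passed the test (KO: log2FC -0.57 ± 0.22, adjusted p = 0.0789; WT: log2FC 0.59 ± 0.22, adjusted p = 0.0784; edgeR). In cKO_UV libraries it had 616, 449, 201 and 567 CPM, against 95.3, 309, 334 and 282 CPM in cKO_NoUV libraries. In FL_UV libraries it had 165, 719.7, 261 and 185 CPM, against 71.7, 116, 221 and 137 CPM in FL_NoUV libraries. Groups overlapped in both.

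As a share of the 4 adult heavy chains per kilobase, Myh4 made up 42.6, 44.6 and 33.7% in KO_UV, against 69.7, 80.6 and 77.2% in KO_NoUV. It made up 18.8, 37.9 and 34.8% in WT_UV, against 76.5, 83.2 and 73.4% in WT_NoUV. All whole-body UV libraries lay below 50% and all NoUV libraries above it. In cKO_UV the share was 49.0, 50.7, 73.6 and 78.8%, against 51.7, 3.56, 5.65 and 37.6% in cKO_NoUV. In FL_UV it was 64.0, 31.6, 48.2 and 7.90%, against 70.8, 9.33, 19.7 and 10.8% in FL_NoUV. The FL_UV, cKO_NoUV and FL_NoUV groups each held libraries below 10% and libraries above 50%, whereas the cKO_UV libraries began at 49.0%. The Myh1 share averaged 54.8% ± 5.02 in KO_UV, 17.9% ± 4.50 in KO_NoUV, 63.0% ± 9.28 in WT_UV and 16.1% ± 4.20 in WT_NoUV (SD, n = 3 each). Myh2 stayed between 3.46% and 13.9% in all 28 libraries, and Myh7 did not exceed 0.125%.

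**Figure D3:**
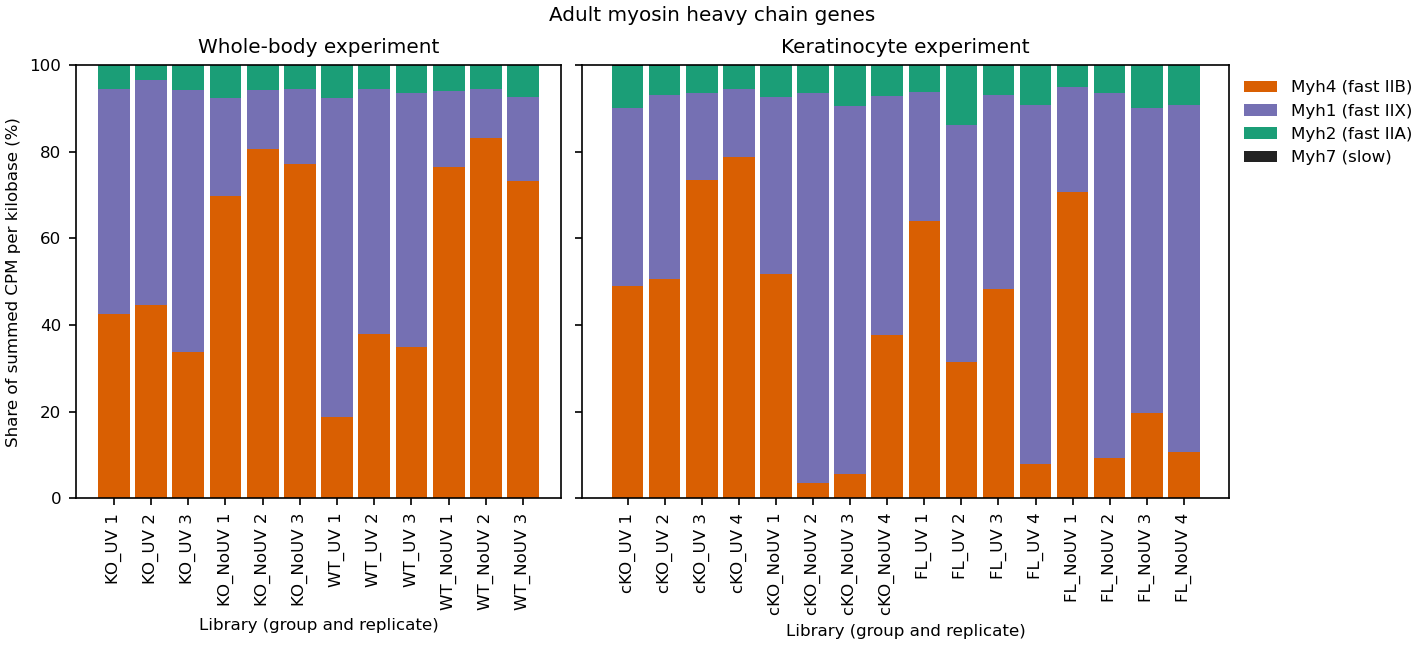
Share of Myh4, Myh1, Myh2 and Myh7 in their summed CPM per kilobase (y axis, %) in each library (bars), with UV groups left of NoUV groups. Myh4 exceeds 69% in all 6 whole-body NoUV libraries and stays below 45% in all 6 UV libraries. In the keratinocyte experiment its share runs from 3.56% (cKO_NoUV 2) to 78.8% (cKO_UV 4), and no cKO_UV library lies below 45%.

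Muscle fibre types differ along the body, and the skin pieces differed in marks of body position. Hoxc10, a homeobox gene of the caudal trunk and hind limb, had 170, 137 and 265 counts in KO_UV, against 1, 1 and 2 counts in KO_NoUV. It had 161, 168 and 272 counts in WT_UV, against 1, 0 and 0 counts in WT_NoUV. In the whole-body experiment, UV and the level of Hoxc10 therefore cannot be told apart for any member. Hoxb9, another position gene, was higher in the same libraries (edgeR, KO: log2FC 3.06 ± 0.27, adjusted p = 4.8e-05; WT: log2FC 2.81 ± 0.27, adjusted p = 0.000151). Of 11 body position genes 10 were tested, and 5 rose in KO, 3 rose in WT, 2 fell in cKO and none was called in FL. Beside this, 22.4% of all genes were called in KO, 18.7% in WT, 9.72% in cKO and 7.62% in FL. The position genes did not all move the same way. Hoxd10, named after its values were seen, had 36, 10 and 40 counts in KO_UV, against 65, 87 and 62 in KO_NoUV. It had 44, 16 and 24 counts in WT_UV, against 66, 50 and 77 in WT_NoUV, and was called in neither genotype.

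In the keratinocyte experiment Hoxc10 had 0.0823, 0.0801, 0 and 0 CPM in cKO_UV, against 0.0829, 4.40, 3.14 and 4.81 CPM in cKO_NoUV. It had 1.79, 0, 2.09 and 4.71 CPM in FL_UV, against 0.567, 2.92, 4.98 and 3.76 CPM in FL_NoUV. Here the cKO_UV libraries were the low ones, the reverse of the whole-body experiment, and cKO_NoUV 1 and FL_UV 2 were low within mixed groups. With the level of Hoxc10 as a covariate, a fit chosen after seeing the data, none of 39 members was called for UV in cKO or in FL. With this covariate 693 of all 19718 genes were called in cKO and 1443 in FL, against 1917 and 1502 without it. In cKO the log2FC under it was 1.86 for Myh4 and 1.65 for Tnnt1, and each of the 6 members called without it had a positive one. Hoxc10 nearly followed treatment in cKO, with cKO_NoUV 1 the only cKO_NoUV library near the cKO_UV levels. The fit therefore cannot divide these differences between UV and Hoxc10. Library by library, cKO_NoUV 1 had low Hoxc10 and the highest Myh4 share of its group. FL_NoUV 1, lowest of its group in Hoxc10 with 0.567 CPM, had a Myh4 share of 70.8%. Its Hoxc10 value rested on 4 counts in the shallowest library. FL_UV 1 had 1.79 CPM of Hoxc10 and a Myh4 share of 64.0%. Other libraries went the other way. FL_UV 2 had no count of Hoxc10 and a Myh4 share of 31.6%. cKO_NoUV 4, highest of its group in Hoxc10 with 4.81 CPM, had a Myh4 share of 37.6%, against 3.56 and 5.65% in cKO_NoUV 2 and 3. This is a description without a test, since libraries of an experiment share groups and treatment.

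**Figure D4:**
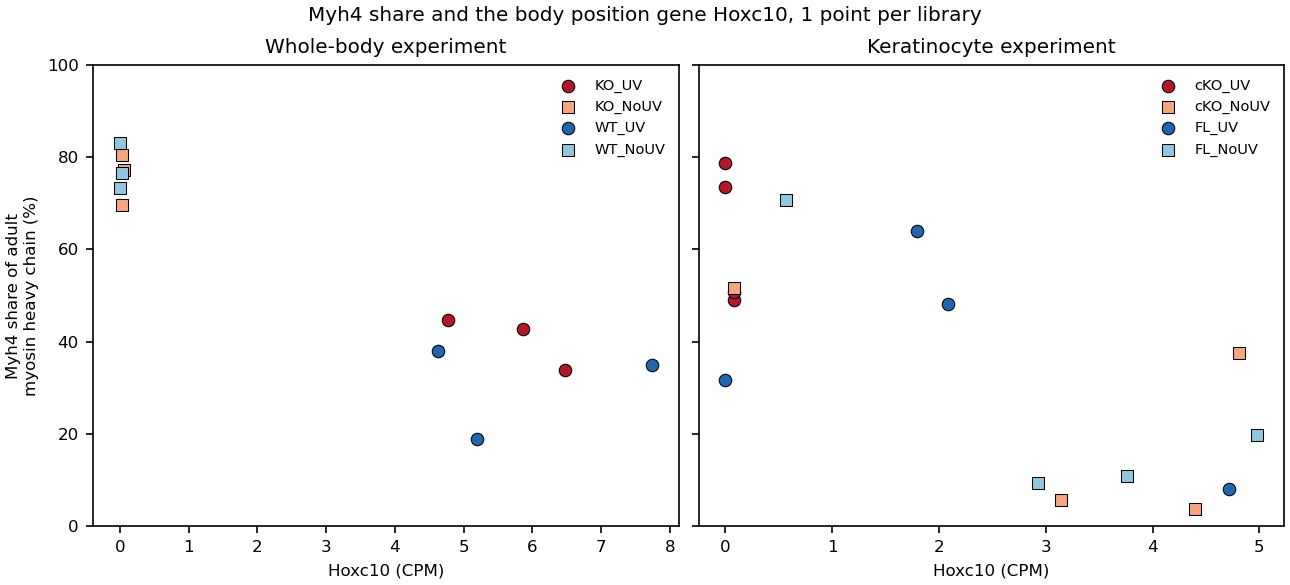
Myh4 share of the adult heavy chains (y axis, %) against Hoxc10 (x axis, CPM), 1 point per library, in the whole-body experiment (left) and the keratinocyte experiment (right); circles are UV libraries and squares NoUV libraries. Whole-body libraries form 2 separate clusters that coincide with treatment, and in the keratinocyte experiment the Myh4 shares above 50% lie below 2 CPM of Hoxc10, in UV and NoUV libraries alike.

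Myh7, the slow heavy chain, had few counts. It had 0, 13 and 0 counts in KO_UV, against 143, 0 and 120 counts in KO_NoUV. It had 0, 2 and 0 counts in WT_UV, against 0, 1 and 0 counts in WT_NoUV. The KO call (edgeR, adjusted p = 0.0452) rested on KO_NoUV 1 and KO_NoUV 3 and was kept in 2 of 7 alternative settings. It was also lost in 10 of 12 fits that left out 1 library, all but those without KO_UV 2 or KO_NoUV 2. Myh7 had 233, 147, 0 and 26 counts in cKO_UV, against 3, 0, 1 and 4 counts in cKO_NoUV (edgeR adjusted p = 0.0112). Myh7 had 2, 5, 0 and 3 counts in FL_UV, against 0, 13, 1 and 1 counts in FL_NoUV. The cKO groups overlapped, with no count in cKO_UV 3.

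Myl2, the slow regulatory light chain, was low as well. It had 3, 36 and 3 counts in KO_UV, against 355, 217 and 205 counts in KO_NoUV, and fell (log2FC -3.91 ± 0.73, adjusted p = 0.00247; edgeR, called in all 12 fits that left out 1 library). It had 3, 3 and 6 counts in WT_UV, against 34, 49 and 29 counts in WT_NoUV, and fell (log2FC -3.12 ± 0.86, adjusted p = 0.0234; lost without WT_UV 1, WT_UV 2 or WT_NoUV 2). In neither genotype did the groups overlap. Myl2 had 149, 30, 0 and 27 counts in cKO_UV, against 5, 0, 0 and 0 counts in cKO_NoUV (edgeR adjusted p = 0.0180). Myl2 had 4, 12, 2 and 0 counts in FL_UV, against 0, 0, 1 and 0 counts in FL_NoUV. Groups overlapped in both keratinocyte genotypes, and the cKO call was kept in 3 of 7 alternative settings and lost without cKO_UV 1, cKO_NoUV 2, cKO_NoUV 3 or cKO_NoUV 4. Myl3, the slow essential light chain, fell in KO (log2FC -2.61 ± 0.80, adjusted p = 0.0326), with at most 9 counts in any KO_UV library, with the call kept in 3 of 7 alternative settings and lost without KO_UV 1, KO_UV 3, KO_NoUV 1 or KO_NoUV 3.

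Mylpf, the fast regulatory light chain, had 846, 1428 and 919 CPM in KO_UV, against 983, 1352 and 918 CPM in KO_NoUV. It had 989, 879 and 763 CPM in WT_UV, against 707, 905 and 438 CPM in WT_NoUV. Mylpf had 552, 670.2, 312 and 1107 CPM in cKO_UV, against 118, 434, 339 and 454 CPM in cKO_NoUV. Its groups overlapped in KO, WT and cKO. Mylpf had 289, 570.0, 392 and 192 CPM in FL_UV, against 174, 186, 230.4 and 129.7 CPM in FL_NoUV. FL_UV 4 was the single FL_UV library within the range of FL_NoUV, and Mylpf passed the test in no UV comparison (edgeR adjusted p = 0.959 in KO, 0.389 in WT, 0.167 in cKO and 0.176 in FL).

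The myosin binding protein C genes, which brace thick filaments, were each called in 1 genotype. Mybpc1, the slow form, rose in WT (log2FC 1.37 ± 0.22, adjusted p = 0.00139; edgeR), averaging 796 ± 254 CPM in WT_UV and 308 ± 39.2 CPM in WT_NoUV (SD, n = 3 each). Mybpc2, the fast form, rose in cKO (log2FC 1.61 ± 0.44, adjusted p = 0.0314), averaging 445 ± 222 CPM in cKO_UV and 146 ± 70.1 CPM in cKO_NoUV (SD, n = 4 each). This call was lost without any 1 of cKO_UV 1, 2 and 4 or cKO_NoUV 1, 2 and 3. Mybpc1 was classed as slow, and its level ran from 266 to 1073 CPM over the whole-body libraries. Myh8, the perinatal heavy chain, rose in WT (log2FC 1.16 ± 0.36, adjusted p = 0.0383) at under 7 CPM, lost the call without WT_UV 1, WT_UV 2, WT_NoUV 2, WT_NoUV 3, KO_UV 1 or KO_UV 3, and is named after its values were seen. Ttn, the giant spring protein titin, passed the test in no UV comparison.

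Tnnt1, slow troponin T, was called in both directions, lower after UV in the whole-body experiment and higher in cKO. It had 1.35, 2.19 and 2.05 CPM in KO_UV, against 7.17, 8.69 and 8.77 CPM in KO_NoUV, and fell (log2FC -2.13 ± 0.37, adjusted p = 0.00150; edgeR). It had 0.968, 2.10 and 2.53 CPM in WT_UV, against 3.97, 6.50 and 2.93 CPM in WT_NoUV, and fell (log2FC -1.25 ± 0.36, adjusted p = 0.0287). The UV and NoUV groups did not overlap in either genotype, and the WT call was lost without WT_UV 1 or WT_NoUV 2. Tnnt1 had 7.37, 2.48, 2.33 and 4.57 CPM in cKO_UV, against 1.41, 0.0786, 0.502 and 0.753 CPM in cKO_NoUV, and rose (log2FC 2.63 ± 0.65, adjusted p = 0.0190). Tnnt1 had 2.69, 3.68, 1.57 and 1.07 CPM in FL_UV, against 1.13, 0.177, 0.341 and 0.627 CPM in FL_NoUV, and did not pass the test (log2FC 2.13 ± 0.69, adjusted p = 0.0709). The cKO groups did not overlap, though the call was lost without cKO_UV 1 or cKO_NoUV 3, and FL_UV 4 lay below FL_NoUV 1. The Hoxc10 values given above differ between the same groups in KO, WT and cKO, and in the whole-body experiment UV and Hoxc10 cannot be told apart. With Hoxc10 as a covariate Tnnt1 had a log2FC of 1.65 in cKO and was not called.

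The fast troponins did not change by the test in any UV comparison. Tnnt3, fast troponin T, had 2431, 3343 and 2376 CPM in KO_UV, against 2597, 3212 and 2316 CPM in KO_NoUV. It had 2432, 1790.2 and 1796 CPM in WT_UV, against 1413, 1965 and 1086 CPM in WT_NoUV. Tnnt3 had 832, 873, 408 and 1267 CPM in cKO_UV, against 137, 604, 467 and 508 CPM in cKO_NoUV. Groups overlapped in all 3 genotypes. Tnnt3 had 305, 725, 425 and 242 CPM in FL_UV, against 156, 235, 297 and 203 CPM in FL_NoUV, with FL_UV 4 alone inside the FL_NoUV range.

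Tnnc2, the fast calcium-binding troponin C, had 791, 993 and 677 CPM in KO_UV, against 763, 968 and 678 CPM in KO_NoUV. It had 762, 731 and 553 CPM in WT_UV, against 573, 630.2 and 308 CPM in WT_NoUV. Its groups overlapped in both. Tnnc2 had 206, 242, 118 and 363 CPM in cKO_UV, against 43.4, 178, 117 and 152 CPM in cKO_NoUV. Tnnc2 had 95.9, 124, 119 and 55.8 CPM in FL_UV, against 40.9, 70.0, 90.0 and 49.3 CPM in FL_NoUV. Groups overlapped in both again. Tnnc1, the slow form shared with the heart, had 0, 8 and 11 counts in KO_UV, against 39, 2 and 28 in KO_NoUV. Its counts were 7, 3 and 5 in WT_UV, against 5, 0 and 2 in WT_NoUV. No keratinocyte library held more than 13, and it was called in no UV comparison that tested it.

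Acta1, the skeletal actin, had 3724, 4554 and 2588 CPM in KO_UV, against 3158, 3856 and 2302 CPM in KO_NoUV. It had 4300.3, 4864 and 3258 CPM in WT_UV, against 2915, 2357 and 1340.3 CPM in WT_NoUV, and rose (log2FC 0.91 ± 0.30, adjusted p = 0.0497; edgeR). The WT groups did not overlap, but the call was lost in 9 of 12 fits that left out 1 library, all but those without WT_NoUV 1, KO_UV 3 or KO_NoUV 3. Acta1 had 3546, 4014, 1718 and 5334 CPM in cKO_UV, against 680.3, 3152, 2319 and 2653 CPM in cKO_NoUV. Acta1 had 1629.7, 3555, 2431 and 1242 CPM in FL_UV, against 909.5, 1206, 1710.0 and 921 CPM in FL_NoUV. Neither passed the test. Tpm2, a tropomyosin, rose in WT (log2FC 0.75 ± 0.21, adjusted p = 0.0268), as did Neb, the thin filament ruler nebulin (log2FC 0.91 ± 0.27, adjusted p = 0.0318), which is named after its values were seen. The Tpm2 call was lost without WT_UV 1, WT_UV 2 or WT_NoUV 3, and the Neb call without WT_UV 1, WT_UV 3, WT_NoUV 1 or WT_NoUV 3.

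At the Z-disc, which anchors thin filaments, the alpha-actinins were called in different genotypes. Actn2, the form of all fibres, rose in WT (log2FC 1.78 ± 0.33, adjusted p = 0.00294; edgeR), with 768, 384 and 492 CPM in WT_UV, against 193, 128 and 156 CPM in WT_NoUV. In KO its log2FC was 0.62 ± 0.32 and did not pass the test. Actn3, the form of fast fibres, had 349.9, 583 and 237 CPM in KO_UV, against 554, 776 and 570.4 CPM in KO_NoUV. It had 323, 329 and 197 CPM in WT_UV, against 502, 513 and 216 CPM in WT_NoUV, and did not pass the test in either. Actn3 had 484, 498, 253 and 1162 CPM in cKO_UV, against 64.1, 168, 86.8 and 222 CPM in cKO_NoUV, and rose (log2FC 2.15 ± 0.53, adjusted p = 0.0201). Actn3 had 186, 246, 197 and 76.9 CPM in FL_UV, against 111, 57.5, 66.7 and 31.3 CPM in FL_NoUV. The cKO groups did not overlap, and the FL groups did. The Actn3 call was lost without cKO_UV 4 or cKO_NoUV 3. Des, the intermediate filament desmin that links Z-discs and is shared with smooth muscle, rose in WT (log2FC 0.86 ± 0.18, adjusted p = 0.00596).

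None of the 6 calcium handling members changed with UV in KO, WT or FL, and 1 did in cKO. Pvalb, the calcium buffer parvalbumin of the fastest fibres, had 507, 613, 267 and 1264 CPM in cKO_UV, against 63.6, 200.1, 106 and 295 CPM in cKO_NoUV, and rose (edgeR adjusted p = 0.0399). The call was lost in 10 of 16 fits that left out 1 library, all but those without cKO_UV 3, cKO_NoUV 4, FL_UV 2, FL_UV 4, FL_NoUV 1 or FL_NoUV 4. Pvalb had 222, 312, 181 and 76.1 CPM in FL_UV, against 127, 51.0, 55.7 and 44.1 CPM in FL_NoUV. Pvalb had 283, 491 and 202 CPM in KO_UV, against 507, 744 and 478 CPM in KO_NoUV. Pvalb had 272, 305 and 173 CPM in WT_UV, against 433, 561 and 188 CPM in WT_NoUV. Pvalb groups overlapped in all 4 genotypes. Its log2FC values were negative in the whole-body genotypes and did not pass the test (KO: -0.82 ± 0.38; WT: -0.66 ± 0.38).

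Atp2a1, the calcium pump of fast fibres (SERCA1), had 3661, 4309.5 and 2586 CPM in KO_UV, against 3983, 4534 and 3558 CPM in KO_NoUV. It had 3286, 3090.1 and 2436 CPM in WT_UV, against 2590.2, 3053 and 1719.9 CPM in WT_NoUV. Atp2a1 had 5259, 6267, 2753 and 10109.9 CPM in cKO_UV, against 986, 3436, 2328 and 3459.9 CPM in cKO_NoUV. Groups overlapped in all 3. Atp2a1 had 2265, 4296, 2136 and 1127 CPM in FL_UV, against 1293, 1267, 1505 and 997 CPM in FL_NoUV, with FL_UV 4 alone inside the FL_NoUV range (edgeR adjusted p = 0.205). Atp2a2, the pump of slow fibres, is also the calcium pump of keratinocytes and ran from 237 to 393 CPM over the whole-body libraries and from 353 to 609.7 CPM over the keratinocyte libraries.

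Among the fuel genes, Ckm, the cytosolic muscle creatine kinase, had 1076, 1399.6 and 849.7 CPM in KO_UV, against 1178, 1451 and 1040.2 CPM in KO_NoUV. It had 1052, 1503 and 809 CPM in WT_UV, against 1313, 981 and 501 CPM in WT_NoUV. Groups overlapped in both. Ckm had 855, 1070.2, 482 and 1834 CPM in cKO_UV, against 201, 658, 434 and 649.6 CPM in cKO_NoUV. Ckm had 470.1, 676, 493 and 219 CPM in FL_UV, against 261, 244, 279.9 and 183 CPM in FL_NoUV. It passed the test in no UV comparison. Ckmt2, the mitochondrial creatine kinase, rose in WT (log2FC 0.66 ± 0.14, adjusted p = 0.00706; edgeR) and kept the call in all 12 fits that left out 1 library.

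Mb, the oxygen store myoglobin, had 241, 216 and 236 CPM in KO_UV, against 248, 185 and 172 CPM in KO_NoUV. It had 297, 130.0 and 110.0 CPM in WT_UV, against 127, 90.8 and 95.7 CPM in WT_NoUV. Mb had 120.0, 152, 36.1 and 103 CPM in cKO_UV, against 28.9, 94.3, 68.6 and 57.2 CPM in cKO_NoUV. Groups overlapped in all 3. Mb had 35.7, 97.0, 41.7 and 46.2 CPM in FL_UV, against 16.4, 22.2, 32.6 and 25.3 CPM in FL_NoUV. The FL groups did not overlap, and the difference did not pass the test (log2FC 1.18 ± 0.43, adjusted p = 0.113; edgeR).

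The myogenic transcription factors were low. Myod1, which starts the muscle programme and in adult muscle is higher in fast fibres, had 1.76, 1.08 and 0.977 CPM in KO_UV, against 3.10, 2.64 and 0.753 CPM in KO_NoUV. It had 0.161, 0.717 and 0.939 CPM in WT_UV, against 2.31, 1.04 and 1.19 CPM in WT_NoUV. Myod1 had 1.44, 4.33, 0.549 and 2.93 CPM in cKO_UV, against 0.663, 3.93, 1.77 and 3.93 CPM in cKO_NoUV. The WT groups did not overlap, with UV lower (edgeR adjusted p = 0.143), and the others did. Myod1 had 0.213, 0.866, 0.482 and 1.14 CPM in FL_UV, against 0.850, 0.620, 0.955 and 1.19 CPM in FL_NoUV, and Myod1 was called in no UV comparison.

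Myog, the differentiation factor myogenin, had 1.86, 0.626 and 1.32 CPM in KO_UV, against 2.72, 1.32 and 1.10 CPM in KO_NoUV. It had 1.10, 0.441 and 2.39 CPM in WT_UV, against 1.19, 0.852 and 1.05 CPM in WT_NoUV. Myog had 1.52, 2.48, 0 and 1.34 CPM in cKO_UV, against 0.746, 1.45, 1.30 and 1.05 CPM in cKO_NoUV. Groups overlapped in all 3. Myog had 0.512, 4.40, 1.00 and 0.810 CPM in FL_UV, against 0.991, 0.886, 0.750 and 0.470 CPM in FL_NoUV, again with overlap. Myf6, the factor of mature fibres, ran from 7.67 to 27.4 CPM over whole-body libraries and from 2.20 to 32.5 CPM over keratinocyte libraries and was called in no UV comparison.

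Genotype moved no member past the threshold. In KO_NoUV against WT_NoUV, 0 of 41 members were called by edgeR where 0.00982% of all genes were called, yet 39 had a positive log2FC, 32 an unadjusted p under 0.05, and the median was 0.73. DESeq2 called 8 members and 573 of all genes, and edgeR without a filter on low counts called 7 members and 185 of all genes. The share of all genes at an unadjusted p under 0.05 was not counted, in this or any other comparison. The 13 fast genes had a median log2FC of 0.71 and the 8 slow genes of 1.63, and Mybpc1 had the smallest adjusted p (log2FC 1.19 ± 0.22, adjusted p = 0.0848). The slow median takes in genes of few counts. Myh7 had 143, 0 and 120 counts in KO_NoUV, against 0, 1 and 0 in WT_NoUV. Myl3, Tnnc1 and Tnni1 had at most 46 counts in any whole-body library. Myh1 averaged 1178 ± 121 CPM in KO_NoUV and 534 ± 21.1 CPM in WT_NoUV without overlap (SD, n = 3 each; edgeR log2FC 1.14 ± 0.25, adjusted p = 0.122). Among slow genes, Myl2 and Tnnt1 were higher in every KO_NoUV library than in any WT_NoUV one and were not called (edgeR, Myl2: log2FC 2.72 ± 0.67, adjusted p = 0.140; Tnnt1: log2FC 0.88 ± 0.35, adjusted p = 0.256). The keratinocyte marker sums given above differ between these groups in the other direction without overlap, and their part in the result was not tested. In KO_UV against WT_UV 0 members were called (0.0442% of all genes), with 2 at an unadjusted p under 0.05, 0 by DESeq2 and a median of 0.26.

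In cKO_NoUV against FL_NoUV 0 of 39 members were called by edgeR (0% of all genes), with 11 at an unadjusted p under 0.05, 0 by DESeq2 and a median log2FC of 0.83. In cKO_UV against FL_UV 0 were called (0% of all genes), with 17 at an unadjusted p under 0.05, 0 by DESeq2 and a median of 0.87. Mb averaged 62.2 ± 27.1 CPM in cKO_NoUV and 24.1 ± 6.76 CPM in FL_NoUV (SD, n = 4 each; edgeR log2FC 1.36 ± 0.43, adjusted p = 0.923). The groups overlapped for Mb, with cKO_NoUV 1 inside the range of FL_NoUV.

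The UV response of the members did not pass a test of difference between genotypes. For KO minus WT 0 of 41 were called (0% of all genes), 4 had an unadjusted p under 0.05, DESeq2 called 0, and 38 of the 41 differences were negative with a median of -0.49. Myh1 had a difference of -1.06 ± 0.35 and Myh2 of -1.16 ± 0.31 (± SE, edgeR adjusted p = 1.00 and 1.00). For cKO minus FL 0 of 39 were called (0% of all genes), with 1 at an unadjusted p under 0.05, 0 by DESeq2 and a median of 0.06.

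Between the experiments, the UV response of WT minus that of FL was tested in 1 joint model, with 1.20% of all 21851 genes called, 0.375% lower. Tnnt1 was the only 1 of 41 members called, with a difference of -3.38 ± 0.84 (edgeR adjusted p = 0.0423), and 7 had an unadjusted p under 0.05. The call was lost in 10 of 14 fits that left out 1 library: each WT library except WT_NoUV 3 and WT_UV 3, and FL_NoUV 2, 3 and 4 and FL_UV 1, 2 and 3. Myh4 had a difference of -2.53 ± 1.08 and Myh1 of 1.95 ± 0.78, neither called. The experiments differ in batch label, mouse line and the Hoxc10 pattern, which cannot be told apart here.

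Genes outside the 41 that mark muscle were counted beside the members. Of 45 other skeletal muscle genes, 2 rose and 3 fell in KO (median log2FC 0.10), and 16 rose and 1 fell in WT (median 0.60). Of 44 tested, 4 rose in cKO (median 0.84) and 2 rose in FL (median 0.86). Over all genes 22.4% were called in KO, 18.7% in WT, 9.72% in cKO and 7.62% in FL. Myom2, an M-band protein that ties thick filaments together, rose in WT (log2FC 1.25 ± 0.20, adjusted p = 0.00149; edgeR). Lmod2, which builds thin filaments, rose in all 4 UV comparisons (KO: 0.97 ± 0.29; WT: 1.84 ± 0.30; cKO: 1.70 ± 0.50; FL: 2.66 ± 0.52). Actc1, the cardiac actin that immature skeletal fibres also express, fell in KO (log2FC -2.15 ± 0.48, adjusted p = 0.00645), and in WT, where it is named after its values were seen (log2FC -1.58 ± 0.48, adjusted p = 0.0356).

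Genes of muscle wasting and fuel switching included some that moved the same way in both experiments. Of 25 genes, 6 rose and 2 fell in KO, 9 rose and 2 fell in WT, 7 rose in cKO and 7 rose in FL. Of all genes, 11.3% rose and 11.1% fell in KO, and 8.91% rose and 9.84% fell in WT. In cKO 4.57% of all genes rose, and in FL 7.62% were called in either direction. Trim63, the ubiquitin ligase MuRF1 that tags sarcomere proteins for breakdown, had 255, 166 and 115 CPM in KO_UV, against 66.0, 40.7 and 34.8 CPM in KO_NoUV. It had 109, 130.0 and 179.9 CPM in WT_UV, against 27.6, 23.8 and 16.8 CPM in WT_NoUV. Neither genotype showed overlap. Trim63 had 64.8, 44.4, 22.4 and 37.8 CPM in cKO_UV, against 3.36, 13.1, 14.6 and 11.7 CPM in cKO_NoUV. Trim63 had 21.2, 54.5, 13.0 and 18.5 CPM in FL_UV, against 6.23, 6.42, 8.29 and 4.95 CPM in FL_NoUV. Again the groups did not overlap, and Trim63 rose in all 4 comparisons (edgeR, KO: log2FC 1.92 ± 0.32, adjusted p = 0.00125; WT: log2FC 2.62 ± 0.33, adjusted p = 0.000428; cKO: log2FC 1.99 ± 0.48, adjusted p = 0.0167; FL: log2FC 2.04 ± 0.48, adjusted p = 0.0179).

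Ucp3, a mitochondrial carrier of muscle linked to fat use, rose in WT (log2FC 2.33 ± 0.57, adjusted p = 0.0135; edgeR), cKO (log2FC 2.57 ± 0.49, adjusted p = 0.00440) and FL (log2FC 2.76 ± 0.50, adjusted p = 0.00381), and had adjusted p = 0.115 in KO. Pdk4, which holds back the use of sugar in mitochondria, rose in WT (log2FC 2.59 ± 0.60, adjusted p = 0.0101) and FL (log2FC 3.05 ± 0.76, adjusted p = 0.0254). Its adjusted p was 0.315 in KO and 0.0762 in cKO. Fbxo32, the other muscle-wasting ligase (atrogin-1), averaged 169 ± 14.9 CPM in KO_UV and 233 ± 19.4 CPM in KO_NoUV (SD, n = 3 each) and was called in no UV comparison, although the KO groups did not overlap. Foxo1, a transcription factor above both ligases, fell in KO (log2FC -1.13 ± 0.26, adjusted p = 0.00706) and WT (log2FC -0.93 ± 0.25, adjusted p = 0.0230) and was not called in cKO or FL. Pdk4, Foxo1 and Fbxo32 are also expressed outside muscle, and the part of other cells, and of the Hoxc10 difference, in these values was not tested.

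**Figure D5:**
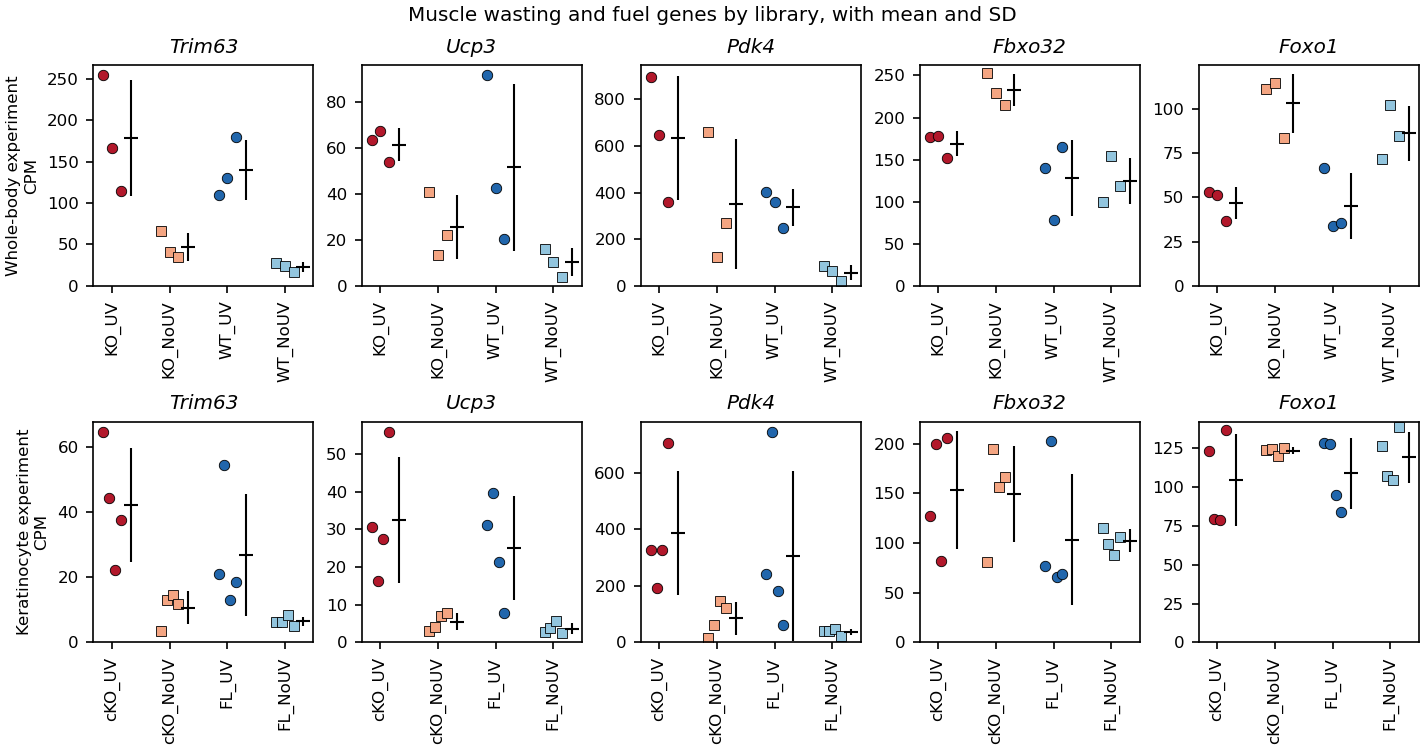
Level (y axis, CPM) of Trim63, Ucp3, Pdk4, Fbxo32 and Foxo1 in each library of the whole-body experiment (top row) and the keratinocyte experiment (bottom row), by group, with the mean and SD beside the points; circles are UV and squares NoUV. Trim63 is higher in every UV library than in every NoUV library of its genotype, whereas Fbxo32 groups overlap except in KO.

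Markers of muscle stem cells and repair (15 genes, 12 tested) had 1 higher and 3 lower in KO, 2 higher and 2 lower in WT, none in cKO and 1 higher in FL. Beside this and the lists that follow, 22.4% of all genes were called in KO, 18.7% in WT, 9.72% in cKO and 7.62% in FL. Pax7, the satellite cell factor, fell in KO (log2FC -1.89 ± 0.55, adjusted p = 0.0253; edgeR) at under 1 CPM. Musk, the receptor kinase of the nerve-muscle junction, rose in KO (log2FC 1.15 ± 0.34, adjusted p = 0.0294) and WT (log2FC 1.60 ± 0.35, adjusted p = 0.00781), and Chrna1, a receptor subunit of that junction, rose in WT (log2FC 0.85 ± 0.27, adjusted p = 0.0400) and FL (log2FC 1.06 ± 0.31, adjusted p = 0.0476). Among 17 genes of oxidative fibres and mitochondria, Cycs, cytochrome c, rose in all 4 UV comparisons (edgeR, KO: 0.63 ± 0.16; WT: 0.67 ± 0.16; cKO: 0.73 ± 0.14; FL: 0.49 ± 0.14). Ppargc1b, a driver of mitochondrial genes, fell in KO (-0.95 ± 0.26), WT (-0.96 ± 0.26) and FL (-0.71 ± 0.21). Smooth muscle markers (8 genes) had 1 call over the 4 UV comparisons, Myh11 in WT (log2FC 0.81 ± 0.22, adjusted p = 0.0233). The 17 oxidative fibre genes had 1 higher and 1 lower in KO, 2 higher and 1 lower in WT, 1 higher in cKO, and 2 higher and 1 lower in FL. Of the heart markers 4 of 7 could be tested, with 2 higher in KO, 1 in WT, none in cKO and 2 in FL and median log2FC of 1.35 in KO, 1.01 in WT, 0.88 in cKO and 1.03 in FL. Tnnt2, cardiac troponin T, rose in KO (1.44 ± 0.23), WT (1.70 ± 0.23) and FL (1.11 ± 0.28).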

How the data were processed

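Total RNA of whole skin was depleted of ribosomal RNA and sequenced as 100 bp pairs, per the labels' protocols. The deposited tables hold raw counts per gene, made by the authors with cutadapt 4.6, HISAT2 2.1.0 and featureCounts against GRCm38, per the submitters' processing notes. Strand and multi-mapping settings are not given in the sources used here. Gene positions in the keratinocyte table do not match GRCm38 and are not printed. Counting error alone limits a gene of few counts, and a count of 3 or less was taken as the floor.

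Each experiment was fitted by itself with edgeR 4.0.16 (quasi-likelihood, TMM scaling, low genes filtered by group) under R 4.3.3, with Benjamini-Hochberg adjustment over all genes tested. A joint model of the 8 groups gave WT minus FL. Levels are TMM-scaled CPM computed from the counts, and CPM per kilobase uses the deposited gene lengths. Alternatives were DESeq2 1.42.0, other size factors, no filter, a replicate block, a muscle covariate, fits of the compared groups alone and fits that left out 1 library. The fits were tested on simulated data. Members and lists were chosen with earlier results of these data known. Named genes were a fixed set of 18 members, other members among the 8 smallest p of a comparison, the 4 smallest p of each other list, 5 wasting and fuel genes and the position genes Hoxc10 and Hoxb9. Members outside that rule were named after their values were seen.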

Additional observations from a re-analysis of the deposited data

Results flagged for a closer look

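In the groups of 4 libraries, 80 sets of values were examined for a library far from the other 3, and chance gives about 1 in 20 such sets. There were 7. Myh4 in FL_UV 4 had 134 CPM, far below the other FL_UV libraries. Myh7 in FL_NoUV 2 had 0.576 CPM, Myl2 in cKO_NoUV 1 had 0.207 CPM and Myl2 in FL_NoUV 3 had 0.0341 CPM, each above its group and each from at most 13 counts. Pvalb in FL_NoUV 1 had 127 CPM and Myog in FL_UV 2 had 4.40 CPM, both above their groups. The Myh4 share of adult heavy chains in FL_NoUV 1, a shallow library, was 70.8%, above the other FL_NoUV libraries. The UV response of Tnnt1 differed between WT and FL by -3.38 on the log2 scale in the test of the difference itself.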

How the results depend on the processing

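The number of members called was recounted under each alternative. With the mean level of other muscle genes as a covariate it was 1 in WT and 1 in FL. With the compared groups alone it was 6 in WT, 3 in cKO (beside 1572 of all genes) and 0 for WT minus FL. DESeq2 called 8 for KO against WT without UV, 4 in FL, 13 in cKO (beside 2687 of all genes) and 2 for WT minus FL. Without the filter on low counts the numbers were 7 for KO against WT without UV, 1 in cKO and 0 for WT minus FL. The cause was not tested in any of these. Chosen after seeing the data, leaving out both shallow libraries gave 1 in FL (beside 1542 of all genes), and the Hoxc10 covariate gave 0 in cKO. Leaving out 1 library at a time gave 3 to 6 calls in KO, 6 to 12 in WT, 0 to 1 for KO against WT without UV, 0 to 1 in FL, 1 to 9 in cKO and 0 to 1 for WT minus FL, and 0 in the other 5 comparisons.

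Over all genes, calls moved by over 1.5 times as follows. The muscle covariate gave 679 in place of 3817 in WT, 1 in place of 2 for KO against WT without UV and 410 in place of 262 for WT minus FL. The compared groups alone gave 1288 in WT, 7493 in place of 4552 in KO, 4 for KO against WT without UV, 953 in place of 1502 in FL and 20 for WT minus FL. DESeq2 gave 573 for KO against WT without UV, 429 in place of 9 with UV, 2304 in FL, 6 and 5 in place of 0 for cKO against FL without and with UV, and 715 for WT minus FL. No filter gave 185 and 162 for KO against WT without and with UV, 992 in FL, 1276 in place of 1917 in cKO, 1 for cKO against FL without UV and 137 for WT minus FL. Added after seeing the data, the Hoxc10 covariate gave 693 in cKO, and leaving out KO_NoUV 2 and KO_UV 3 together gave 1468 in KO and 1 for KO against WT with UV. Directions turned for Myh1 in FL with the muscle covariate (-0.43), Myh1 in cKO with the Hoxc10 covariate (0.25) and Myh2 in cKO with the muscle covariate (-0.17). Myh7, at few counts, ran from -1.85 to 2.73 in WT and from -1.31 to 1.86 in FL over fits that left out 1 library. None of these was called.

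Replicate numbers recur in the groups, but same-numbered libraries did not all deviate together: r ran from -0.371 to 0.322 over 18 pairs of whole-body libraries and from -0.220 to 0.522 over 24 pairs of keratinocyte libraries. Their median r was 0.116 in the whole-body and 0.193 in the keratinocyte experiment. Pairs of unlike number had median r of -0.0495 and -0.0432. The main fits held no term for the replicate number. Of 12 and 16 libraries, 6 and 10 correlated best with a library of their own number. With a replicate block 7 members were called in KO, 15 in WT, 5 in cKO, 2 in FL and 1 for WT minus FL. Of all genes this block called 4409 in KO, 3687 in WT, 2553 in cKO, 2129 in FL and 332 for WT minus FL. For KO against WT it called 22 of all genes without UV and 31 with UV, and for cKO against FL without UV 1.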

Other observations

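Ttn, the longest muscle transcript, ran from 8301 to 46047 CPM in the keratinocyte experiment and from 1721 to 11757 CPM in the whole-body experiment. The experiments were scaled separately. Among short genes of the same fibres, Tnnc2 and Mylpf had lower ranges in the keratinocyte experiment. Tnnc2 ran from 40.9 to 363 CPM in the keratinocyte experiment and from 308 to 993 CPM in the whole-body experiment. For Mylpf these ranges were 118 to 1107 CPM and 438 to 1428 CPM. Pvalb and Acta1, also short, had wider ranges in the keratinocyte experiment, reaching both lower and higher levels than in the whole-body experiment. A pattern by gene length was not tested. Per kilobase among the 41 members, Ttn ranked 12 in the keratinocyte experiment and 26 in the whole-body experiment. Gm42418 held 1.02% to 14.1% of the counts in the whole-body libraries.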
